A study of Mus musculus and Homo sapiens with 8 samples.

Results

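C-type lectin receptors are carbohydrate-binding and related surface proteins with which myeloid cells sense fungi, mycobacteria and damaged cells. The 10 genes described here are Clec4n, Clec4a1, Clec4a2, Clec4a3, Clec4d, Clec4e, Clec5a, Clec7a, Clec10a and Clec12a. They were chosen by name, with earlier results of these data known, and all 10 were among the 25668 rows of the mouse count table. Their transcripts were counted by RNA sequencing. The cells came from bone marrow of wild-type C57BL/6 mice, given as 6 weeks old. The 3 macrophage libraries were from cells grown with 50 ng/ml of the growth factor M-CSF, and the 3 osteoclast libraries from such macrophages given 100 ng/ml of RANKL, the cytokine that drives osteoclast formation, besides M-CSF. No genetic change or further treatment is given for either group, and whether the 3 libraries of a group stem from different mice or dishes is not labelled. All p-values below therefore rest on the spread from library to library, which may be technical.

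Activating members of the family signal through immunoreceptor tyrosine-based activation motifs (ITAMs). Clec4n (Dectin-2), Clec4d (MCL) and Clec4e (Mincle) borrow the motif from the adaptor Fcer1g, Clec5a (MDL-1) uses the adaptor Tyrobp (DAP12), and Clec7a (Dectin-1) carries a partial motif of this kind in its own tail. These routes converge on the kinase Syk and the scaffold Card9. Clec4a2 (DCIR) and Clec12a (MICL) carry inhibitory motifs (ITIMs) that recruit phosphatases such as the products of Ptpn6 and Ptpn11. Osteoclast formation itself depends on ITAM signalling through Fcer1g and Tyrobp alongside RANKL.

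The macrophage and osteoclast labels were checked against marker genes. The summed level of 9 osteoclast markers, among them Acp5, Ctsk and Mmp9, was 56.4 to 60.6 CPM in macrophage libraries and 11724 to 12282 CPM in osteoclast libraries, where CPM stands for counts scaled to a common library size, with TMM factors (a trimmed mean of log ratios between libraries). The macrophage markers, 6 genes including Adgre1 and Csf1r, summed to 6340 to 6540 CPM and 7298 to 7654 CPM, but of these genes Adgre1 and Itgam rose and the other 4, Csf1r, Cd68, Mertk and Fcgr1, fell. Total counts per library ran from 16743849 to 22587509, and 3 counts, taken as the floor of detection, correspond to 0.130 to 0.178 CPM. Markers of stromal cells and osteoblasts summed to 207.6 CPM in macrophage library 1 but to 14.0 and 8.70 CPM in macrophage libraries 2 and 3. In the osteoclast libraries they summed to 20.6 to 29.1 CPM. Of these markers Dcn was called higher, with 12 macrophage and 580 osteoclast counts, and 3 were called lower, Col1a1, Col1a2 and Runx2. The groups overlapped for Col1a1 and Col1a2, which were high in macrophage library 1 alone. Col1a1 had 1849, 65 and 23 counts in macrophages and 75, 122 and 44 in osteoclasts. Osteoclast library 2 held 4152 CPM of the nuclear RNA Malat1 against 1103 to 1463 in the other 5 libraries. Calls lost or signs turned without both libraries are given below. As each library holds the RNA of a whole culture, fewer cells of a type and less RNA per cell cannot be told apart.

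Transcripts of the 10 genes together were more abundant in osteoclasts, and the makeup of their sum differed between the groups. Other C-type lectin genes, given below, are not in this sum. The 10 genes together held 1038, 1056 and 1042 CPM in macrophage libraries 1 to 3 and 3536, 3409 and 3636 CPM in the osteoclast libraries, a ratio of group means of 3.37. Mincle and MCL supplied 32.4% of this sum in macrophages and 65.4% in osteoclasts. Without those 2 genes the other 8 summed to 706.5 ± 8.51 CPM in macrophages and 1219 ± 51.8 CPM in osteoclasts (mean ± SD, n = 3 per group). In macrophages the largest part, 47.4%, was Clec12a, which made up 10.9% in osteoclasts.

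**Figure D1:**
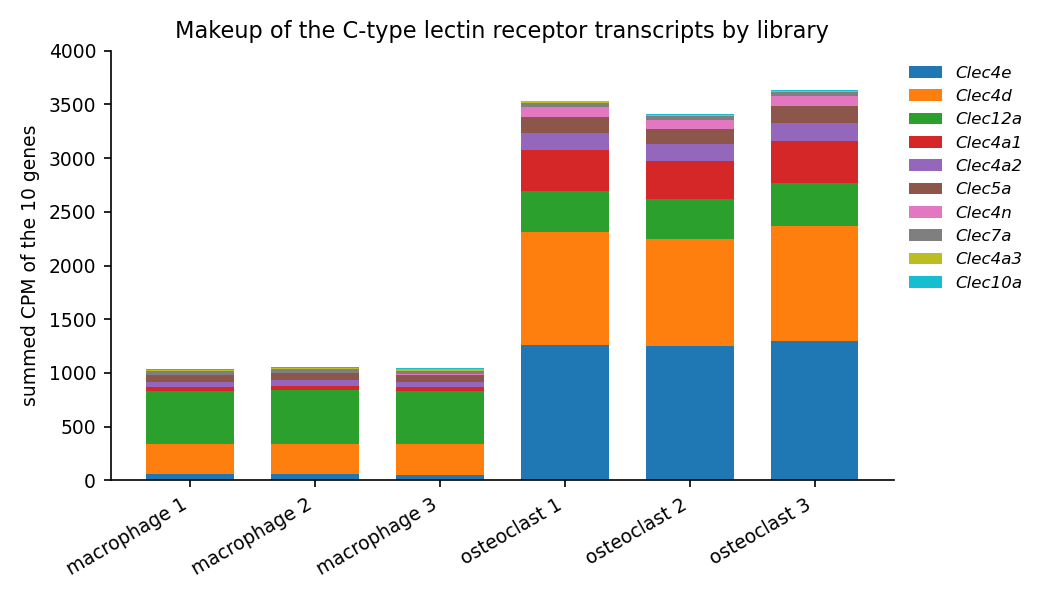
Stacked bars give the CPM of each of the 10 genes in each of the 6 libraries, on a linear axis from 0. The bars reach 1038 to 1056 CPM in macrophages and 3409 to 3636 CPM in osteoclasts, and Clec4e and Clec4d fill 65.4% of the osteoclast bars on average.

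All 10 genes passed the filter on low counts, and the lowest count of any of them in any library was 23. In edgeR's quasi-likelihood test over 13247 genes, 6 of the 10 rose in osteoclasts, 1 fell and 3 did not pass an adjusted p of 0.05. Of all tested genes, 63.7% were called, 32.3% higher and 31.4% lower, so that 7 calls among 10 genes are close to the background of this comparison. Likewise 7 of 10 genes had groups that did not overlap, against 68.1% of all genes. All 6 genes that rose did so by at least 1 log2, whereas 9.35% of tested genes were called higher by that much and 6.61% lower. The median log2 fold change was 1.46 over the 10 genes and -0.004 over all tested genes. As the 10 genes were chosen with earlier results of these data known, these contrasts with all tested genes may in part reflect the choice. The split of calls between higher and lower depends on the scaling, with 50.7% of calls higher under TMM, 28.9% with equal library totals and 32.2% on the deposited scale, which moved the typical gene by -0.22 and -0.19 log2.

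**Figure D2:**
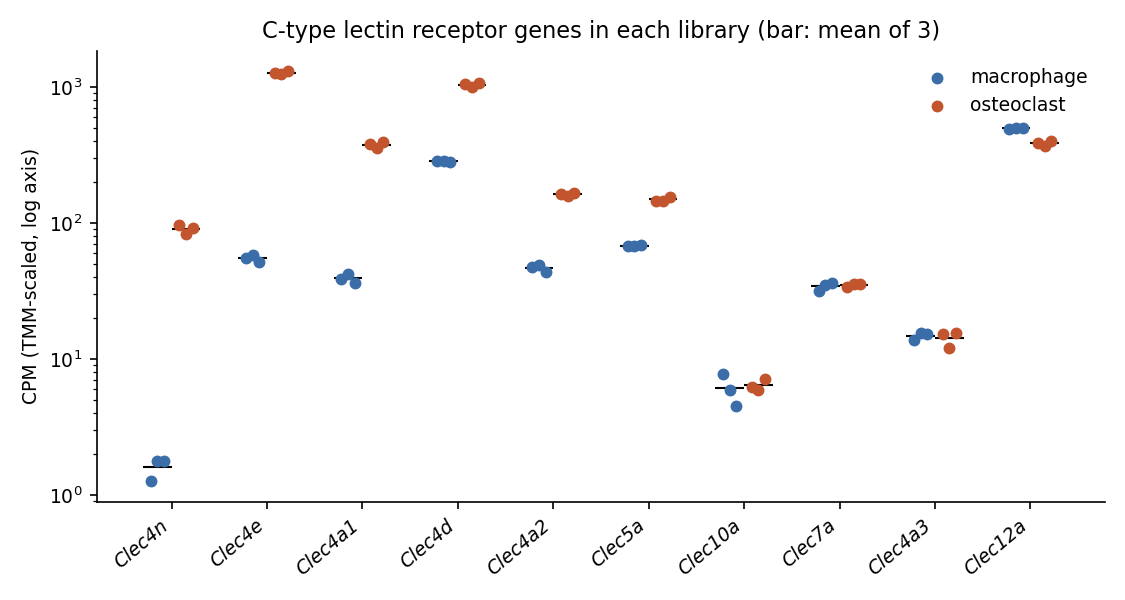
Each point is 1 library, with the gene on the horizontal axis in order of its log2 fold change and CPM on a logarithmic vertical axis. Bars mark the mean of the 3 libraries of a group. The groups are apart for 7 genes and overlap for Clec10a, Clec7a and Clec4a3.

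Promoters are shown here because 6 of the 10 genes lie in 1 gene cluster and moved by very different amounts. Of the 10 genes, 8 had windows in the RefSeq promoter table (GRCm38.p6), and Clec4n and Clec10a had none there. Below are the 250 bases before a start annotated by RefSeq, each 5′ to 3′ on the strand of its gene. They belong to 2 strongly raised genes (Clec4e and Clec4a1), to 1 that did not pass (Clec7a) and to the 1 that fell (Clec12a). Capitals mark matches, on either strand, to the core of PU.1 (GAGGAA), the factor of the myeloid lineage, to AP-1 (TGANTCA), to C/EBP (TTGCNNAA), to the E-box CACGTG or to the NF-kB consensus.
Clec4e, chr6:123289872-123290121, minus strand: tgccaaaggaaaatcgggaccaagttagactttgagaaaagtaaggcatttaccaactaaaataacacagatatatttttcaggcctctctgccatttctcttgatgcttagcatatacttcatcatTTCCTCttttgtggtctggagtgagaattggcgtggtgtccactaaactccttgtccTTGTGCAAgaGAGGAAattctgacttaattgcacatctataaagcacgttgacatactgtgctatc
Clec4a1, chr6:122921598-122921847, plus strand: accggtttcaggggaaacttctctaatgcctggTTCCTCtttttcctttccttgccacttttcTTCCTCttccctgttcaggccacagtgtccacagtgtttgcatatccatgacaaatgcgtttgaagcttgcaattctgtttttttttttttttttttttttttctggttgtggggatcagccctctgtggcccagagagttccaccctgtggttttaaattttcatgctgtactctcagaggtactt
Clec7a, chr6:129472780-129473029, minus strand: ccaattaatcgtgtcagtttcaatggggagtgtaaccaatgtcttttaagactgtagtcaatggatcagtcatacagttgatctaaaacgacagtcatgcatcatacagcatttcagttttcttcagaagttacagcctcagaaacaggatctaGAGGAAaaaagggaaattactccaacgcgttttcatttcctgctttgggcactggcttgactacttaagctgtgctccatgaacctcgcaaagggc
Clec12a, chr6:129349994-129350243, plus strand: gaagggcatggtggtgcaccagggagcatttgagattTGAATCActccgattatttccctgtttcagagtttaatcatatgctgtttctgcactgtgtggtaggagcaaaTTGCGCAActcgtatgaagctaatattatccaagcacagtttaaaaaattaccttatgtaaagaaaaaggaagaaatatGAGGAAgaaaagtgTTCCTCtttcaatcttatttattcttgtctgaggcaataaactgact
The PU.1 core was found in 8 of 10 windows of these genes, or 7 of 8 genes, against 23.3% of the 32851 promoter windows of that length in the table. Some genes have several overlapping windows. Clec4a2 was the gene without a PU.1 core. Its window (chr6:123122440-123122689) lies inside the span that GENCODE M21 gives the gene, 123106428 to 123143999. The window of Clec12a likewise lies inside its GENCODE span, 129342691 to 129365303. The 2 annotations thus place these starts differently, and the bases before the GENCODE starts of these 2 genes were not searched. A C/EBP match was found for Clec4e and Clec12a (9.56% of all windows) and an AP-1 match for Clec12a (6.75%). The E-box (6.02% of all windows) and the NF-kB consensus (3.90%) were found in no window of these genes. Genes that rose, the genes Clec7a and Clec4a3 that did not pass and the gene that fell were among those that held the PU.1 core. A match is a run of letters and not a measured binding site.

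Among the 10 genes, the 3 receptors that signal through Fcer1g all rose, where 32.3% of all tested genes were called higher. Clec4b1, an Fcer1g-coupled receptor gene outside the 10, fell, as given below. Clec4e encodes Mincle, the receptor for mycobacterial cord factor and for the nuclear protein SAP130 released by dying cells. It stood at 55.2, 57.9 and 52.0 CPM in macrophage libraries 1 to 3 and at 1260.4, 1247 and 1301 CPM in osteoclast libraries 1 to 3. Every osteoclast library was thus far above every macrophage library, by 4.53 log2 (SE 0.057, adjusted p = 3.04e-15, edgeR's quasi-likelihood test), or 23.1-fold between group means. On mm10 the gene spans chromosome 6 from 123281789 to 123289870 on the minus strand.

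Clec4n encodes Dectin-2, a receptor for fungal mannans. Its counts were 23, 41 and 39 in macrophages and 1705, 1407 and 1924 in osteoclasts, or 1.61 ± 0.297 and 90.9 ± 6.88 CPM (mean ± SD, n = 3). Groups were far apart, and the log2 fold change of 5.79 (SE 0.109, adjusted p = 6.98e-14, edgeR's quasi-likelihood test) ranked 106th among the 13247 tested genes. With so few macrophage counts the estimate depends on the pseudocount, and limma on log2(CPM + 5) gave 3.86, still called. The gene lies on chromosome 6 from 123229843 to 123247021 on the plus strand.

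Clec4d encodes MCL, which pairs with Mincle at the cell surface and also binds cord factor. It was already abundant in macrophages, at 285.6, 283.8 and 281.9 CPM, and stood at 1049, 998.2 and 1069 CPM in osteoclasts. The rise of 1.87 log2 (SE 0.046, adjusted p = 8.94e-13, edgeR's quasi-likelihood test) was smaller than that of its partner. The count of Clec4e per count of Clec4d, which needs no scaling between libraries, was 0.193, 0.204 and 0.184 in macrophages and 1.20, 1.25 and 1.22 in osteoclasts. The count of Clec4n per count of Clec4d went from 0.0057 ± 0.0011 to 0.0875 ± 0.0046 (mean ± SD, n = 3). Both partners of the MCL and Mincle pair therefore gained transcript, in unequal measure.

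Clec5a encodes MDL-1, a Tyrobp-coupled receptor of myeloid cells that senses flaviviruses. Its level was 67.4, 67.9 and 69.2 CPM in macrophages and 146.1, 143.7 and 156.3 CPM in osteoclasts. The groups did not overlap, and the change was 1.13 log2 (SE 0.042, adjusted p = 5.48e-11, edgeR's quasi-likelihood test), the smallest of the 6 rises and 0.91 with equal totals. This gene lies apart from the others on chromosome 6, from 40574894 to 40585821 on the minus strand.

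Clec7a encodes Dectin-1, the receptor for fungal beta-glucans. It read 31.5, 34.8 and 36.5 CPM in macrophages and 33.9, 35.6 and 35.8 CPM in osteoclasts, so the groups overlapped throughout. Its log2 fold change was 0.035 (SE 0.066, adjusted p = 0.662, edgeR's quasi-likelihood test), but -0.18 and past the threshold with equal totals, a shift of the size that moved the typical gene. GENCODE M21 lists Clec7a (chromosome 6, 129461591 to 129472779, minus strand) as a polymorphic pseudogene, while RefSeq lists it as coding.

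The inhibitory receptors moved in opposite directions. Clec4a2 encodes DCIR, whose loss in mice is known to enhance inflammation and to alter bone. It stood at 47.2, 49.4 and 44.0 CPM in macrophages and at 163.3, 158.0 and 165.0 CPM in osteoclasts, a rise of 1.79 log2 (SE 0.047, adjusted p = 1.34e-12, edgeR's quasi-likelihood test) with groups that did not overlap. Clec12a encodes MICL, which binds uric acid crystals and dampens responses to dead cells. It was the most abundant of the 10 in macrophages by CPM, at 490.0, 496.6 and 500.2, and stood at 383.3, 370.5 and 400.05 CPM in osteoclasts. This fall of 0.37 on the log2 scale (adjusted p = 8.27e-06, edgeR's quasi-likelihood test) was the only one among the 10 genes under TMM and ranged from -0.58 to -0.34 over all settings. Counts of Clec4d per count of Clec12a rose from 0.573 ± 0.0097 to 2.70 ± 0.033 (mean ± SD, n = 3).

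Clec4a1 and Clec4a3, listed by RefSeq under the synonyms Dcir4 and Dcir3, are relatives of DCIR. Clec4a1 stood at 38.4, 42.5 and 36.5 CPM in macrophages and 381.5, 354.2 and 394.2 CPM in osteoclasts. It rose by 3.27 log2 (SE 0.057, adjusted p = 3.40e-14, edgeR's quasi-likelihood test), or 9.63-fold between group means. Clec4a3, its nearest neighbour on the chromosome, gave 13.9, 15.5 and 15.2 CPM against 15.3, 12.1 and 15.6 CPM, and these ranges overlapped. Its change of -0.05 (SE 0.100, adjusted p = 0.690) did not pass, became 0.058 without osteoclast library 2 and 0.011 without both libraries that stood apart, and with equal totals was -0.27 and called lower. Counts of Clec4a1 per count of Clec4a2 were 0.815, 0.861 and 0.829 in macrophages and 2.34, 2.24 and 2.39 in osteoclasts.

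Clec10a encodes MGL1, an endocytic receptor for galactose and N-acetylgalactosamine that marks alternatively activated macrophages. Counts were low, 140, 138 and 99 in macrophages and 109, 99 and 149 in osteoclasts, and the groups overlapped. Its log2 fold change of 0.086 (SE 0.173, adjusted p = 0.684, edgeR's quasi-likelihood test) had the largest error of the 10, and its sign turned without macrophage library 3 or osteoclast library 3 and with equal totals. The gene is the only 1 of the 10 outside chromosome 6, on chromosome 11 from 70156197 to 70170834. Within a group, the coefficient of variation of the 10 genes ran from 0.651% for Clec4d to 26.1% for Clec10a, both in macrophages.

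Levels were compared between genes per kilobase of annotated exon (GENCODE M21). In macrophages Clec4d came first, at 177.5 ± 1.16 CPM per kilobase, followed by Clec12a at 89.7 ± 0.936, Clec4a1 at 25.1 ± 1.97, Clec5a at 17.8 ± 0.235, Clec4a2 at 16.0 ± 0.929 and Clec7a at 13.0 ± 0.948 (mean ± SD, n = 3). Below these lay Clec4a3 at 11.2 ± 0.652 and Clec4e at 11.1 ± 0.592 CPM per kilobase, which did not differ beyond their spread, then Clec10a at 2.10 and Clec4n at 1.14. In osteoclasts Clec4d again came first, at 649.5 ± 22.7 CPM per kilobase, ahead of Clec4e at 255.7 ± 5.67 and Clec4a1 at 241.7 ± 13.1, whose ranges overlapped. Clec12a at 69.6 ± 2.68 and Clec4n at 64.0 ± 4.84 CPM per kilobase overlapped as well. Clec4a2 at 55.4, Clec5a at 38.7, Clec7a at 13.3, Clec4a3 at 10.8 and Clec10a at 2.21 followed. Clec4n thus moved from the last place to the fifth and Clec4e from the eighth to the second, although the exon length of Clec4e, 4965 bases, exceeds that of Clec4d, 1599 bases, by a long margin and weighs on this order.

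The Dectin-2 group on chromosome 6 is formed by 6 of the genes, and their changes did not follow their order on the chromosome. From Clec4a1 to Clec4e the group covers 368.0 kb (122921848 to 123289870, mm10) and holds 9 coding genes of the count table, of which 7 could be tested: 5 rose, Clec4b1 fell and Clec4a3 did not pass. Clec4b1, which encodes an Fcer1g-coupled relative of DCIR, had counts of 47, 66 and 49 in macrophages and 0, 3 and 8 in osteoclasts, a change of -3.66 (SE 0.474, adjusted p = 1.58e-05, edgeR's quasi-likelihood test). At these low counts the size depends on the method, and limma on log2(CPM + 5) gave -0.55, still called. It lies between Clec4a3 and Clec4a2, so a gene that fell, a gene that did not pass and genes that rose stand next to each other. Clec4a4 had 7 macrophage and 24 osteoclast counts and Clec4b2 had 0 and 2, too few to test. Outside the group, Necap1, an endocytosis gene, rose by 0.28 log2 on the side of Clec4a1.

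**Figure D3:**
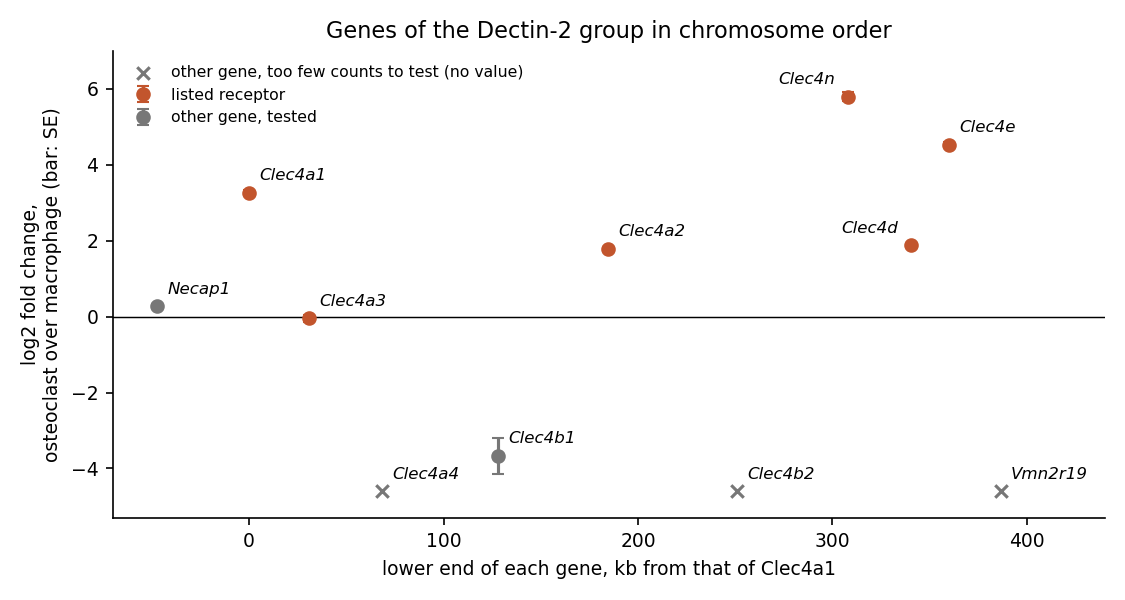
The horizontal axis gives the lower end of each gene in kb from that of Clec4a1, and the vertical axis the log2 fold change of osteoclasts over macrophages with its SE. Crosses at the bottom mark genes with too few counts to test, with no value. Clec4n and Clec4e stand highest, at 5.79 and 4.53, and Clec4b1 lies at -3.66.

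The Dectin-1 group, taken here as the stretch from Clec12a to Clec7a, covers 130.1 kb of the same chromosome (129342691 to 129472779). It holds 6 genes of the table, Clec7a included. Of the 3 within this stretch that could be tested none rose, and Clec12a fell. With 32.3% of all tested genes called higher and 31.4% lower, 3 genes are too few to set against these shares. Clec7a and Clec1b, which encodes the platelet receptor CLEC-2, did not pass. The result depends on where the stretch is cut, as Olr1, the receptor for oxidised LDL, lies just beyond Clec7a and rose from 0.406 to 2.57 CPM. On the far side, Cd69, an early activation marker, rose by 0.99 log2 (adjusted p = 0.00145, edgeR's quasi-likelihood test).

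Near-identical relatives share some transcript sequence, so that a few reads cannot be placed. Among all 50-base windows of their GENCODE transcripts, 6.69% of those of Clec4a2 also occurred in another gene, mainly Clec4a4 and Clec4b1, and 9.02% of those of Clec10a, mainly its neighbour Mgl2. The other 8 genes shared at most 0.686%. No source used here says how the authors' counting treated such reads.

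Of 54 other C-type lectin genes, 17 had enough counts to test. Their median change was 0.52 log2, and 8 of them rose, 6 fell and 3 did not pass, where 32.3% of all tested genes rose and 31.4% fell. The largest rise was that of Ly75 (DEC-205, an antigen uptake receptor), from 0.418 ± 0.148 to 21.9 ± 1.00 CPM or 5.71 log2. Klra2 (a Ly49 receptor) rose by 2.76 and Olr1 by 2.67. The folds of Ly75 and Olr1 were much smaller with a pseudocount of 5, at 2.31 and 0.49 log2. Cd207 (langerin) fell most, from 66.9 ± 6.15 to 2.06 ± 0.275 CPM or -5.03 log2, then Clec4b1, Thbd (thrombomodulin) at -1.44 and Cd93 at -1.33. Mrc1, the macrophage mannose receptor, fell from 419.2 ± 8.44 to 167.7 ± 2.04 CPM (adjusted p = 4.49e-12, edgeR's quasi-likelihood test). Mgl2, the neighbour of Clec10a, changed by 0.85 and did not pass (adjusted p = 0.0590). Both directions thus occurred among the wider family, as among the 10 genes.

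Neither adaptor named above as carrying the signal of the raised receptors was called higher with all 6 libraries. Fcer1g stood at 572.8 ± 27.0 CPM in macrophages and 503.6 ± 38.9 CPM in osteoclasts and was called lower by 0.19 on the log2 scale (adjusted p = 0.0146, edgeR's quasi-likelihood test), a call lost without macrophage library 3 (adjusted p = 0.0634) and on the deposited scale. Tyrobp stood at 582.7 and 602.6 CPM and changed by 0.048 (adjusted p = 0.478), but it was called lower with equal totals and after quantile normalization, and called higher at 0.10 without osteoclast library 2. Syk rose from 314.6 ± 6.10 to 501.5 ± 22.99 CPM, by 0.67 log2. Card9 changed by 0.14 (adjusted p = 0.0465), a call lost under most of the alternatives run, with -0.080 under equal totals.

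The 26 adaptor and activating signalling genes went both ways, with 11 that rose, 10 that fell and 5 that did not pass, and 63.7% of all tested genes were called about evenly in both directions. Their median change was 0.08 log2, and with equal totals 7 rose and 13 fell. The kinase Src, known for its need in the ruffled border of osteoclasts, rose most, from 3.52 ± 0.255 to 79.4 ± 0.826 CPM or 4.50 log2, then its relative Fgr at 2.83, the adaptor Lcp2 (SLP-76) at 1.10 and Malt1, the protease partner of Card9 and Bcl10, at 1.09. Pik3ap1 (-0.68), the adaptors Lat2 (-0.62) and Blnk (-0.56) and the regulatory subunit Pik3r1 (-0.61) fell.

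Of 15 tested inhibitory signalling genes 7 rose, 4 fell and 4 did not pass, which is near the background of 63.7% called. Their median was 0.03 log2, and 4 rose and 8 fell with equal totals. The phosphatase gene Ptpn6 (SHP-1) rose by 0.18 and Ptpn11 (SHP-2) by 0.28, both calls lost with equal totals, where Ptpn6 changed by -0.035. The lipid phosphatase Inpp5d (SHIP-1) fell by 0.35 on the log2 scale and Inppl1 by 0.39. The receptor Pirb (0.74), the adaptor Dok3 (0.56), the receptor Lilrb4a (0.38) and Ubash3b (0.33) rose most, the last 2 no longer called on the deposited scale, and the ubiquitin ligase Cblb (-1.26) and the receptor Sirpa (-0.45) fell.

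Genes known to be induced through Syk and Card9 in myeloid cells were mostly higher. The median of the 16 tested was 1.25 log2, as 13 rose, 2 fell and 1 did not pass, where 32.3% of all tested genes rose and 31.4% fell. Nos2 rose by 11.26, Csf3, with 1 macrophage count, by 6.69, Il1a by 5.35 and Il1b by 4.67, and Il10 (-1.57) and Egr3 (-1.38) fell. With a pseudocount of 5 these values shrank to 6.44 for Nos2, 0.54 for Csf3, 1.03 for Il1a, 1.69 for Il1b, -0.48 for Il10 and -0.31 for Egr3, all still called. These genes also respond to many other signals, and which receptor acted on them was not tested.

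**Figure D4:**
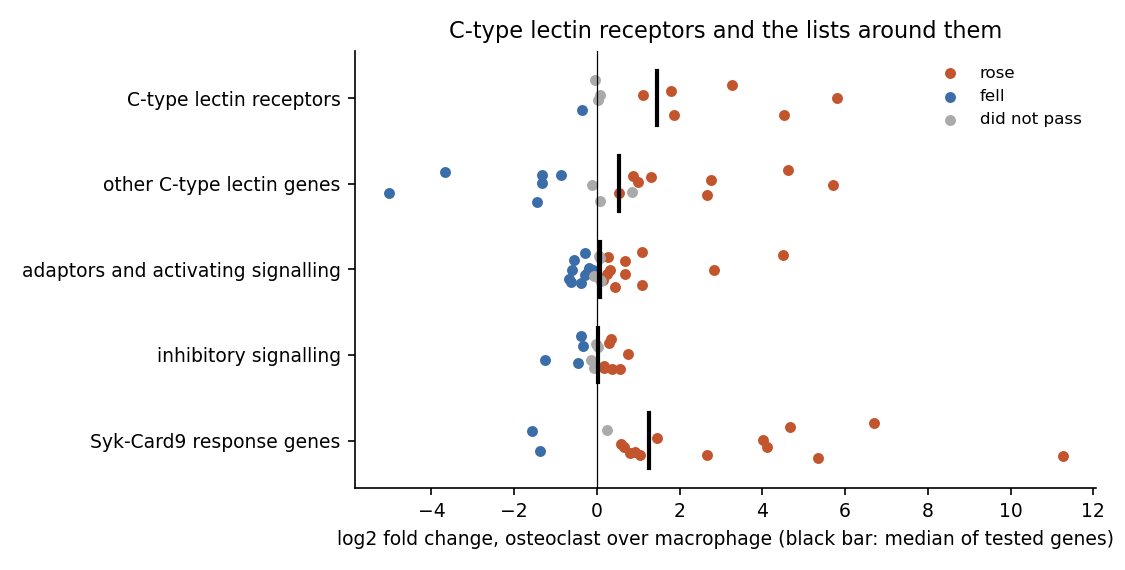
Each point is 1 tested gene, placed by its log2 fold change of osteoclasts over macrophages and coloured by whether it rose, fell or did not pass edgeR's quasi-likelihood test. Black bars mark the median of each list, from 1.46 for the 10 receptors to 0.03 for inhibitory signalling.

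Several of the 10 genes are also expressed by other marrow cells, and marker sums of neutrophils and monocytes were higher in osteoclasts. Of 12 neutrophil markers 8 were in the count table, and their sum was 26.4 to 28.1 CPM in macrophages and 86.3 to 103.7 CPM in osteoclasts, with S100a8 and Lcn2 called higher, at 16.98 and 52.2 CPM in osteoclasts. Csf3r, the receptor for the cytokine G-CSF, made up most of the macrophage sum, at 27.3 CPM there and 24.1 CPM in osteoclasts. Camp had 3 and 26 counts, and S100a9, Mpo, Elane and Cxcr2 had at most 1 count per group. Dendritic cell markers, 6 of 8 in the table, summed to 22.9 to 26.0 CPM in macrophages and 13.1 to 16.4 CPM in osteoclasts. Most of this sum was Itgax, at 20.8 and 12.9 CPM. The markers went both ways, with Itgax and Irf4 called lower and Zbtb46 called higher, from 0.130 to 1.00 CPM. Cd209a and Ccr7 had at most 3 counts per group. Of 5 monocyte markers, summing to 28.8 to 31.9 and 290.5 to 362.0 CPM, the matrix gene Vcan rose to 316.6 CPM, Ccr2 fell to 0.839 CPM, and Ly6c2 had 0 and 5 counts. The part of these cells in the levels of the 10 genes was not tested beyond these values. Without macrophage library 1 and osteoclast library 2, the 6 rises and the fall of Clec12a were called again.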

How the data were processed

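Per the file headers, the deposited mouse table gives 1 whole number per gene symbol and library. It is named as normalized by the authors, but its library totals and size factors differ (size factors 0.870 to 1.19), so the values were analysed as counts. The submitters' processing notes name STAR 2.6.0c, featureCounts 1.6.2 and mm10, without their roles. The strand setting is not stated in any source used. The human libraries of the series were not used here.

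The test was the two-sided quasi-likelihood test of edgeR 4.0.16 (R 4.3.3) on genes kept by filterByExpr, with TMM factors and no covariate. Its p-values were adjusted by Benjamini-Hochberg over 13247 genes and called below 0.05. The SE beside a log2 fold change was back-calculated as its absolute value divided by the square root of the test's F statistic. Alternatives used DESeq2 1.42.0 and limma 3.58.1, other scalings and filters, and fewer libraries. The test was tested on simulated data. Exon lengths, positions and transcript windows came from GENCODE M21, promoters from RefSeq. Members and lists were chosen with earlier results of these data known. Named genes are the 10 members, the 4 highest and 4 lowest called genes of each list, genes named by role, and neighbours; further genes were chosen after their values were seen, and 1 gene is not reported here. Counting error and the floor cover sampling only.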

Additional observations from a re-analysis of the deposited data

How the results depend on the processing

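Over 16 alternatives, the 6 rises and the fall of Clec12a kept their direction and their call. With equal totals 3 of the 10 genes fell in place of 1, Clec7a (-0.18) and Clec4a3 (-0.27, adjusted p = 0.0295) joining Clec12a. The 3 genes that did not pass changed sign in places. Clec10a was -0.13 with equal totals, -0.079 on the deposited scale and between -0.082 and 0.29 when single libraries were left out, and 0.34 without both libraries that stood apart. Clec7a was -0.16 on the deposited scale, -0.027 without both of these libraries and -0.015 to 0.086 with single libraries left out. Clec4a3 ran from -0.12 to 0.058 with single libraries left out and was 0.011 without both, a setting chosen after seeing the data. Equal totals gave 2625 genes higher and 6445 lower, against 4281 and 4162, and the deposited scale gave 1800 higher. Adaptor genes that rose numbered 7 with equal totals and 6 on the deposited scale, and inhibitory genes that rose 4 and 2, with 8 falling with equal totals. Without a filter 13 other C-type lectin genes rose. Tyrobp was -0.17, -0.14 and -0.16 with equal totals, with the deposited scale and with quantile normalization, Card9 -0.080 and -0.047 and Ptpn6 -0.035 and -0.0023 in the first 2 of these. Lgals1 was -0.071, -0.039 and -0.11 in these 3, Lgals3 -0.014 with equal totals and -0.22 after quantile normalization, and Lgals8 -0.14 with equal totals and -0.11 on the deposited scale. Equal totals and the deposited scale moved the typical gene by -0.22 and -0.19, and other causes were not tested. Whether the replicate numbers pair the libraries is not labelled. Same-numbered deviations correlated at 0.051, 0.063 and 0.139, and differently numbered ones at -0.127 to 0.049. Deviations within a group of 3 libraries are not independent, so these values cannot decide it. With the replicate block 4237 genes rose and 4114 fell, with 6 and 1 of the 10. Depth limits Clec10a and the macrophage level of Clec4n most.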

Other observations

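Siglecs and galectins, other families that bind glycans, were examined with lists chosen after the data were seen. Of 7 tested Siglecs, receptors for sialic acid that mostly carry inhibitory motifs, 6 rose and Siglecf fell (-1.93), with a median of 1.49 log2, where 32.3% of all tested genes rose. Siglec15, a Tyrobp-coupled receptor with a known role in osteoclast maturation, rose from 0.139 ± 0.110 to 12.5 ± 0.306 CPM or 6.39 log2 (adjusted p = 8.69e-11, edgeR's quasi-likelihood test). With a pseudocount of 5 its value was 1.77, that of Mag 0.84 and that of Siglecf -0.29. Siglece rose by 3.67, Mag by 1.65, Cd33 by 1.49 and Siglec1, the sialoadhesin of macrophages, by 1.44, from 499.9 ± 13.1 to 1359 ± 4.82 CPM. Cd22 rose by 0.51, a call lost with equal totals, on the deposited scale, without both libraries that stood apart (adjusted p = 0.0564), and without macrophage library 1, macrophage library 2 or osteoclast library 3. Of 5 tested galectins, soluble binders of galactosides, 3 rose under TMM, and with equal totals, on the deposited scale or after quantile normalization 1 did. Lgals8 was called lower with equal totals, and Lgals3 was called lower after quantile normalization. Lgals9 rose by 0.66 log2, from 146.8 ± 8.66 to 232.8 ± 10.6 CPM.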
